A study of Mus musculus with 28 samples.

Results

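Matricellular proteins are secreted into the extracellular matrix, where they bind cells, collagen and growth factors more than they bear load. They are sparse in the resting adult heart, and a family trait is that fibroblasts and other cells make them again after injury and during fibrosis. The 9 genes followed here were Postn (periostin), Tnc (tenascin-C), the thrombospondins Thbs1, Thbs2 and Thbs4, Comp (the fifth thrombospondin), Spp1 (osteopontin), Cilp (cartilage intermediate layer protein) and Sparc (osteonectin). They were taken by name from the estimated count table, in which all 9 were present among 39152 gene symbols, and all 9 passed the filter on low counts in both ventricles.

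The measurements were RNA-seq libraries of the left ventricle (LV) and right ventricle (RV) of C57BL6 adult mice. Pkp2-cKO mice carry Pkp2 fl/fl alleles and αMyHC-Cre-ER(T2), a Cre that is active in cardiomyocytes only after tamoxifen, so Pkp2 stays intact in fibroblasts, macrophages and vessels, and the WT mice were Pkp2 fl/fl littermates without Cre. TN-401, an AAV9 vector that carries codon-optimised human PKP2 under the cardiac troponin T promoter, was given to Pkp2-cKO mice as a single retro-orbital dose of 3E13 or 6E13 vg/kg, 1 week before tamoxifen, and the WT and cKO groups received the buffer HBSS. The LV groups held 5 WT, 4 cKO, 4 3E13 and 3 6E13 libraries and the RV groups 3, 4, 2 and 3, and 12 of the 16 animals gave both ventricles. WT and treated hearts were collected 9 weeks after induction, whereas buffer-treated cKO animals are listed as dead by the last assessment and their own collection time is not given, so collection time and the untreated cKO state cannot be told apart.

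Libraries held 19364764 to 39381176 estimated reads. The deleted gene followed the labels: Pkp2 was at 103 to 122 CPM (read counts scaled to library sizes that were corrected by the TMM method) in the 8 WT libraries and at 29.2 to 55.2 in the other 20, and the human transgene was at 0 in every WT and cKO library and at 167 to 535 CPM in the treated ones. Mitochondrial genes took 15.0 to 26.7% of the reads of cKO libraries, 28.4 to 37.7% of treated and 33.5 to 39.6% of WT libraries. The LV library of cKO animal 177 stood apart, with 7280 CPM summed over 6 ventricular muscle markers against 16200 to 23600 in the other cKO LV libraries, 1130 CPM over 9 macrophage markers against 289 to 607, and 37.3 CPM over 5 platelet markers against 7.01 to 10.2. Its RV library was also low in ventricular muscle markers, at 7970 CPM against 13700 to 20900 in the other cKO RV libraries, and had the lowest mitochondrial share of all, 15.0%. Atrial muscle markers (Myl4, Myl7, Sln and Bmp10) summed to 359 and 657 CPM in the RV libraries of cKO animals 180 and 257 and to 39.8 CPM in that of 177, and to at most 2.05 CPM in every other library. Results are therefore given also without 177 in LV and without 180 and 257 in RV.

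Levels per transcript length differed widely among the 9 genes in WT myocardium. In the 5 WT LV libraries Sparc was highest at 55.9 ± 5.54 TPM (a level that is also divided by transcript length, mean ± SD), followed by Postn at 6.74 ± 1.94 and Thbs2 at 4.35 ± 0.563 TPM. Thbs1 was at 1.63 ± 0.501, Cilp at 1.11 ± 0.528, Thbs4 at 0.71 ± 0.161, Tnc at 0.244 ± 0.171 and Comp at 0.236 ± 0.0817 TPM, and Spp1 was lowest at 0.0547 ± 0.0574 TPM. Sparc stood clear of the rest, whereas the libraries of Postn and Thbs2, of Thbs1 and Cilp, of Cilp and Thbs4, of Tnc and Comp, and of Comp and Spp1 overlapped. In the 4 cKO LV libraries Sparc (370 ± 122 TPM) and Postn (266 ± 170 TPM) were still first and second but overlapped each other. Thbs4 (16.4 ± 2.37 TPM) and Thbs2 (17.9 ± 3.83 TPM) had the lowest means there, but the means of Tnc (25.4 ± 35.1 TPM) and Spp1 (134 ± 252 TPM) rested on animal 177. In the other 3 libraries Tnc was at 2.21, 5.43 and 16.7 TPM and Spp1 at 3.53, 10.4 and 10.6 TPM, against 14.1 TPM or more for Thbs2 and 13.3 TPM or more for Thbs4 in every cKO LV library.

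All 9 genes were higher in cKO than in WT in both ventricles by edgeR's quasi-likelihood test over all genes, with Benjamini-Hochberg adjustment. The background was 19.7% of 16410 genes called higher in LV and 19.8% of 17307 in RV. The median log2 fold change of the 9 genes was 4.81 in LV and 4.59 in RV, beside medians of 0.05 and 0.06 over all genes tested. Without animal 177 in LV the count stayed at 9, and so it did in RV without animals 180 and 257, and in RV without animal 177. The genes are ordered below by what their proteins do. Postn is among the genes that the study itself displayed for these hearts, so its direction is not independent evidence.

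**Figure D1:**
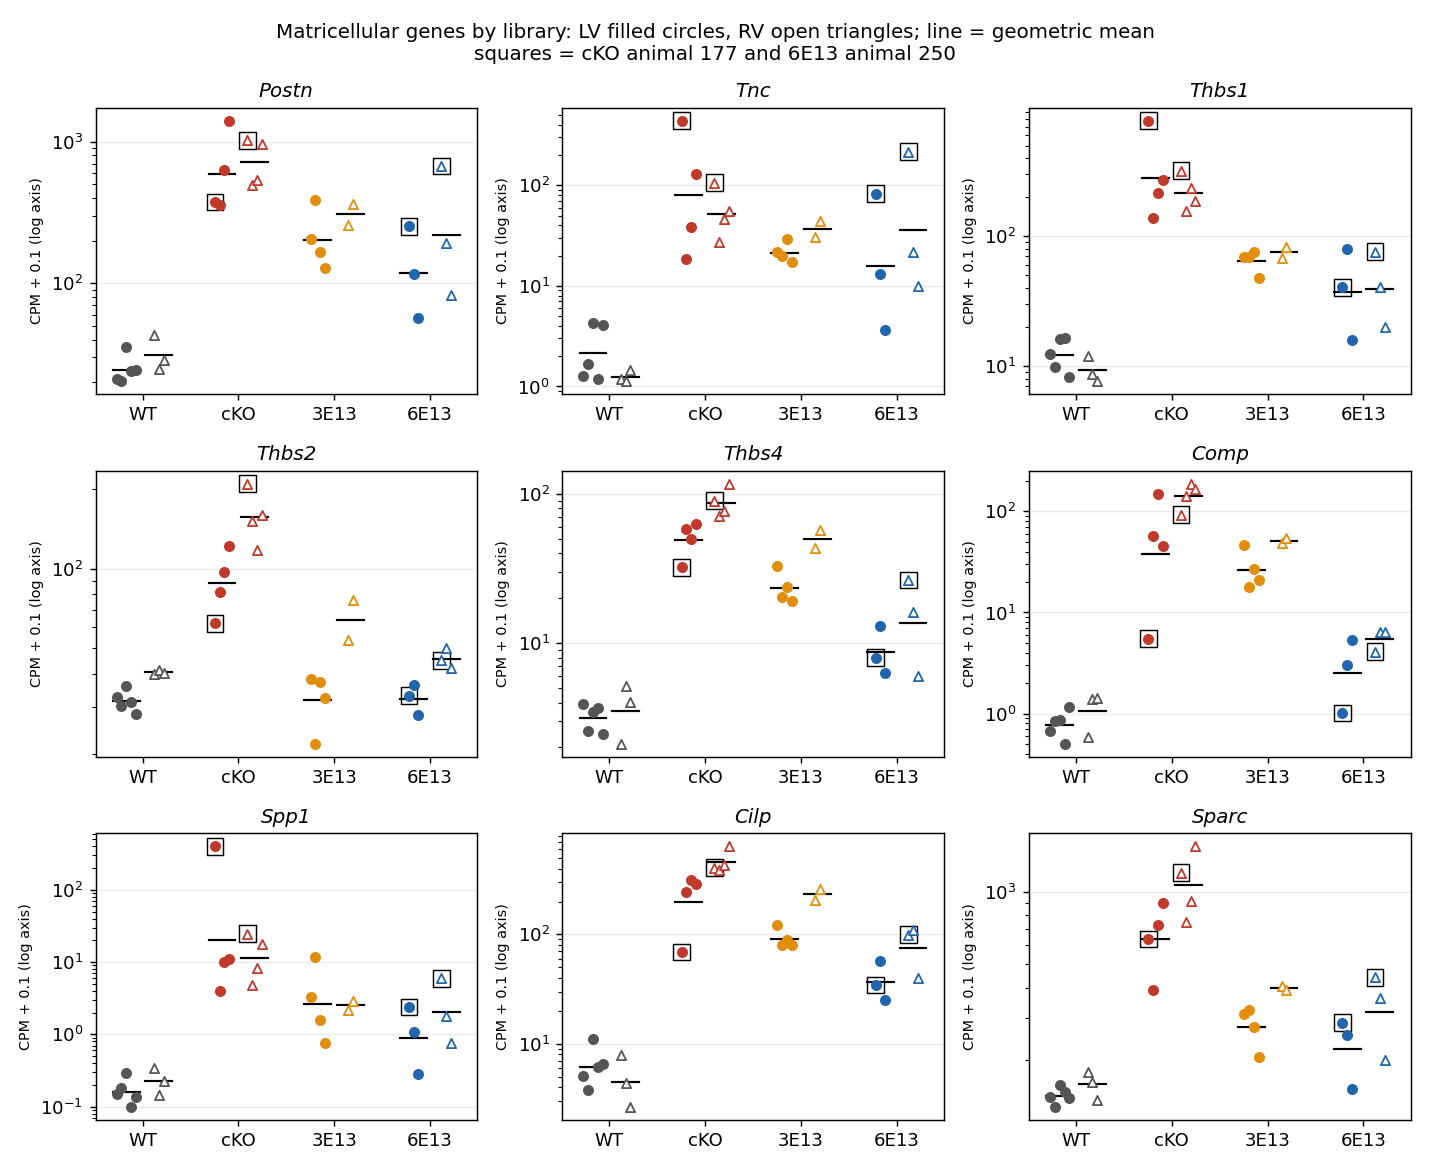
CPM plus 0.1 (log axis) of each gene in every library, by group, with LV as filled circles, RV as open triangles and the geometric mean of each ventricle as a line. Each cKO library lies above each WT library of its ventricle for all 9 genes, and how many of all genes do so was not counted. Squares mark cKO animal 177, which lies far from its LV group for Spp1, Tnc and Comp, and 6E13 animal 250, the highest of its group for Tnc.

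Postn, a protein that binds collagen and integrins and is a standard marker of activated cardiac fibroblasts, lies on chr3:54268501-54298471 (GRCm39, plus strand). In LV it was at 21.0, 20.4, 35.2, 23.8 and 24.4 CPM in WT and at 374, 355, 635 and 1410 CPM in cKO. The groups were far apart, with a log2 fold change of 4.79 ± 0.51 (SE, adjusted p = 1.15e-05, edgeR). In RV it was at 42.7, 24.8 and 28.8 CPM in WT and at 1020, 494, 540 and 963 CPM in cKO (4.55 ± 0.67, adjusted p = 3.27e-04, edgeR). The LV value was 4.17 without animal 264.

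Tnc, a large hexameric glycoprotein that loosens cell adhesion and is found at wound edges, lies on chr4:63878014-63965443 (minus strand). It was nearly silent in WT, at 1.18, 1.56, 4.19, 1.08 and 4.00 CPM in LV. In cKO LV it was at 440, 18.2, 38.3 and 128 CPM, the highest value being that of animal 177. The log2 fold change was 5.98 ± 1.00 (adjusted p = 3.83e-04, edgeR) and 4.63 without animal 177 (adjusted p = 6.20e-04). In RV Tnc went from 1.08, 1.04 and 1.36 CPM in WT to 106, 27.4, 46.1 and 54.9 CPM in cKO, a difference of 5.65 ± 1.10 (adjusted p = 0.00186, edgeR).

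The regions just upstream of 3 of these genes are printed because the genes moved together, so a reader may ask what letters their promoters hold. Of the 9 genes, 7 had RefSeq promoter windows (build GRCm38.p6, 10 windows of 300 bases, 250 of them before the start), and Thbs1 and Comp had none. The letters TATAAA, a form of the TATA box, were found on either strand in windows of 4 of the 7 genes, Postn, Tnc, Spp1 and Thbs2, and 13.6% of all 32851 windows held them. Other forms were not searched for. Cilp and the Tnc window that is not printed hold TATATAA near the start. The TEAD motif (CATTCC), which TEAD factors of the Hippo pathway bind, was found in Thbs4 alone, against 14.7% of all windows, and the AP-1 motif (TGANTCA) in none, against 7.81%. The 250 bases before the start follow, in the direction of transcription and in lower case, with the motif in capitals, for Postn (chr3:54360857-54361106, plus strand), Tnc (chr4:64047016-64047265, minus strand) and Thbs4 (chr13:92794819-92795068, minus strand).
Postn: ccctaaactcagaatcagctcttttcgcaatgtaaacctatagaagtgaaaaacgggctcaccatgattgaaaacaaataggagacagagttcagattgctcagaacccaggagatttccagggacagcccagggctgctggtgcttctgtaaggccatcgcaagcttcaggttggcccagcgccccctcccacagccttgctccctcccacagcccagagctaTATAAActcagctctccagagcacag
Tnc: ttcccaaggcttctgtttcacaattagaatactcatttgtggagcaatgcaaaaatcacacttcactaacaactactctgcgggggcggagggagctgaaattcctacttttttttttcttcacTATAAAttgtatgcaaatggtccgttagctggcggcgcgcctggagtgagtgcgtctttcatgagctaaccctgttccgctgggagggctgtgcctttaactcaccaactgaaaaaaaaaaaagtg
Thbs4: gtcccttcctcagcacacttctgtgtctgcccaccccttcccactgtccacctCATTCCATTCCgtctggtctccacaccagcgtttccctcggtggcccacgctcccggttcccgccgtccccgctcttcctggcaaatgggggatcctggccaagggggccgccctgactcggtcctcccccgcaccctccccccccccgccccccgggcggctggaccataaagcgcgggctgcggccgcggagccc
In Postn TATAAA begins 26 bases before the start, the usual distance of a TATA box. The match begins 126 bases before the start in the Tnc window printed, 211 in Spp1 and 126 in Thbs2, far from that distance. Thbs4 holds 2 TEAD motifs that share 1 letter, beginning 197 and 192 bases before the start. No motif was shared by all 7 genes, and a match describes these letters only.

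The thrombospondins bind calcium, collagen and cell receptors. Thbs1 is a trimer that activates latent TGF-β and inhibits vessel growth, is also stored in platelets, and lies on chr2:117941974-117957616 (plus strand). In LV it was at 12.2, 9.75, 16.1, 16.3 and 8.16 CPM in WT and at 778, 139, 217 and 270 CPM in cKO. The difference was 4.81 ± 0.52 on the log2 scale (adjusted p = 1.28e-05, edgeR), and 4.05 without animal 177, the highest library. In RV it was at 11.8, 8.60 and 7.62 CPM in WT and at 320, 157, 235 and 188 CPM in cKO (4.59 ± 0.45, adjusted p = 3.07e-05, edgeR).

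Thbs2, the other trimer, which limits vessel growth and helps to order collagen fibrils, lies on chr17:14885761-14914528 (minus strand) and was the gene that changed least. In LV it went from 32.5, 30.2, 35.9, 31.3 and 28.1 CPM in WT to 62.1, 81.3, 96.9 and 122 CPM in cKO. In RV it went from 39.8, 41.2 and 40.3 CPM to 210, 152, 118 and 159 CPM. The log2 fold changes were 1.52 ± 0.18 (adjusted p = 3.02e-05, edgeR) and 1.98 ± 0.19 (adjusted p = 2.45e-05, edgeR).

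Thbs4 and Comp form pentamers and are best known from tendon, cartilage and muscle attachments, and Thbs4 also acts inside cardiomyocytes in the endoplasmic reticulum stress response. Thbs4 (chr13:92888095-92931501, minus strand) was at 3.83, 2.46, 3.36, 3.60 and 2.36 CPM in WT LV and at 32, 57.9, 49.3 and 63.1 CPM in cKO LV. In RV it was at 2.02, 5.07 and 3.91 CPM in WT and at 89.6, 70.6, 76.4 and 117 CPM in cKO. It rose by 4.02 ± 0.26 in LV (adjusted p = 2.79e-07, edgeR), with 4.59 ± 0.49 in RV (adjusted p = 5.09e-05, edgeR).

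Comp lies on chr8:70826192-70834716 (plus strand) and was close to silent in WT, at 0.567, 0.738, 0.771, 0.405 and 1.07 CPM in LV and 0.492, 1.31 and 1.32 CPM in RV. In cKO LV it was at 5.41, 57.3, 148 and 45.3 CPM, animal 177 being the lowest here. In cKO RV it was at 92.8, 140, 188 and 165 CPM. The log2 fold change was 6.46 ± 0.78 in LV (adjusted p = 3.24e-05, edgeR) and 7.11 ± 0.38 in RV (adjusted p = 2.33e-06, edgeR). Without animal 177 the LV value was 6.84, without animal 257 it was 5.62, and without animals 180 and 257 the RV value was 6.92.

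Spp1, a phosphoprotein with an integrin-binding site that is made by bone cells and by activated macrophages, lies on chr5:104582165-104589235 (plus strand). WT libraries held almost none of it, with 0 to 7 reads each in LV and 1 to 5 in RV. In cKO LV it was at 397, 3.91, 9.78 and 11.1 CPM, so that animal 177 held most of the group's Spp1. In cKO RV it was at 24.6, 4.65, 8.29 and 17.6 CPM, again with animal 177 on top. The fitted log2 fold changes of 10.23 ± 1.74 in LV (adjusted p = 4.28e-04, edgeR) and 6.62 ± 0.98 in RV (adjusted p = 3.56e-04, edgeR) depend on the small count that edgeR adds to so low a WT level. The LV value was 6.58 without animal 177 (adjusted p = 1.65e-04, edgeR).

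Cilp, a matrix protein of cartilage that is also made by cardiac fibroblasts, lies on chr9:65172200-65187888 (plus strand). In LV it was at 5.01, 3.65, 11, 5.98 and 6.37 CPM in WT and at 69.0, 244, 312 and 291 CPM in cKO, with animal 177 lowest as for Comp. In RV it was at 7.72, 4.30 and 2.55 CPM in WT and at 408, 385, 435 and 638 CPM in cKO. The log2 fold changes were 5.15 ± 0.43 (adjusted p = 1.86e-06, edgeR) and 6.59 ± 0.50 (adjusted p = 8.73e-06, edgeR).

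Sparc, which binds collagen and is needed for its assembly in the heart, lies on chr11:55285317-55314067 (minus strand) and was the most abundant of the 9 per length in every group. In LV it was at 140, 128, 158, 147 and 139 CPM in WT and at 636, 390, 729 and 901 CPM in cKO. In RV it was at 179, 162 and 137 CPM in WT and at 1200, 750, 914 and 1540 CPM in cKO. Its log2 rise was smaller than that of all the others but Thbs2, at 2.22 ± 0.22 in LV (adjusted p = 6.47e-06, edgeR) and 2.79 ± 0.31 in RV (adjusted p = 5.84e-05, edgeR).

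Markers of some cell types rose along with the 9 genes, though bulk libraries do not show which cells made their RNA. Endothelial markers did not rise as a list, with 1 of 4 called higher and 1 lower in LV, and 0 higher and 1 lower in RV. Of 4 smooth muscle markers, 0 were called in LV and 3 were called higher in RV. Of 7 fibroblast markers, 5 were called higher in cKO LV and 7 in cKO RV, and their summed level was 857 to 1070 CPM in WT and 1920 to 3030 CPM in cKO for LV, and 1050 to 1370 against 3510 to 5890 CPM for RV. All 9 macrophage markers were called higher in both ventricles, with sums of 131 to 166 CPM in WT against 289 to 1130 in cKO for LV, and 178 to 215 against 500 to 873 for RV. Of 8 tendon and cartilage markers, 2 of the 5 tested were called higher in LV and 6 of the 7 tested in RV, where 1 was called lower. Ventricular muscle markers moved the other way, 4 of 6 called lower in LV and 6 of 6 in RV, with sums of 29700 to 33900 CPM in WT against 7280 to 23600 in cKO for LV. Sln was at 0 in all cKO LV libraries and Tnmd and Col2a1 in all WT LV libraries. The part of these cell markers in the rise of the 9 genes was not tested, and in bulk tissue fewer cells of a type and less RNA per cell cannot be told apart.

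The cKO hearts did not raise the 9 genes in equal measure, and animal 177 split them. In its LV library Spp1 lay 4.28 above the group mean on the log2 scale, Tnc 2.47 above and Thbs1 1.46 above, whereas Comp lay 2.79 below, Cilp 1.52 below, Postn 0.65 below, Thbs4 0.61 below and Thbs2 0.50 below. Sparc sat at the mean. In its RV library Spp1 lay 1.10, Tnc 1.02, Thbs1 0.56 and Sparc 0.18 above the mean, and Comp lay 0.61 and Cilp 0.16 below. Postn, Thbs2 and Thbs4 lay 0.51, 0.42 and 0.05 above it, opposite to LV. The other cKO LV libraries also ranged widely for Tnc, from 18.2 CPM in animal 180 to 128 CPM in animal 264. Across the 4 cKO LV libraries the highest value was 102 times the lowest for Spp1, 27.4 times for Comp and 24.2 times for Tnc, but 1.96 times for Thbs2 and 1.97 times for Thbs4. The macrophage and platelet marker sums given above were also highest, and the ventricular muscle sum lowest, in the LV of animal 177, and their part in this spread was not tested.

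**Figure D2:**
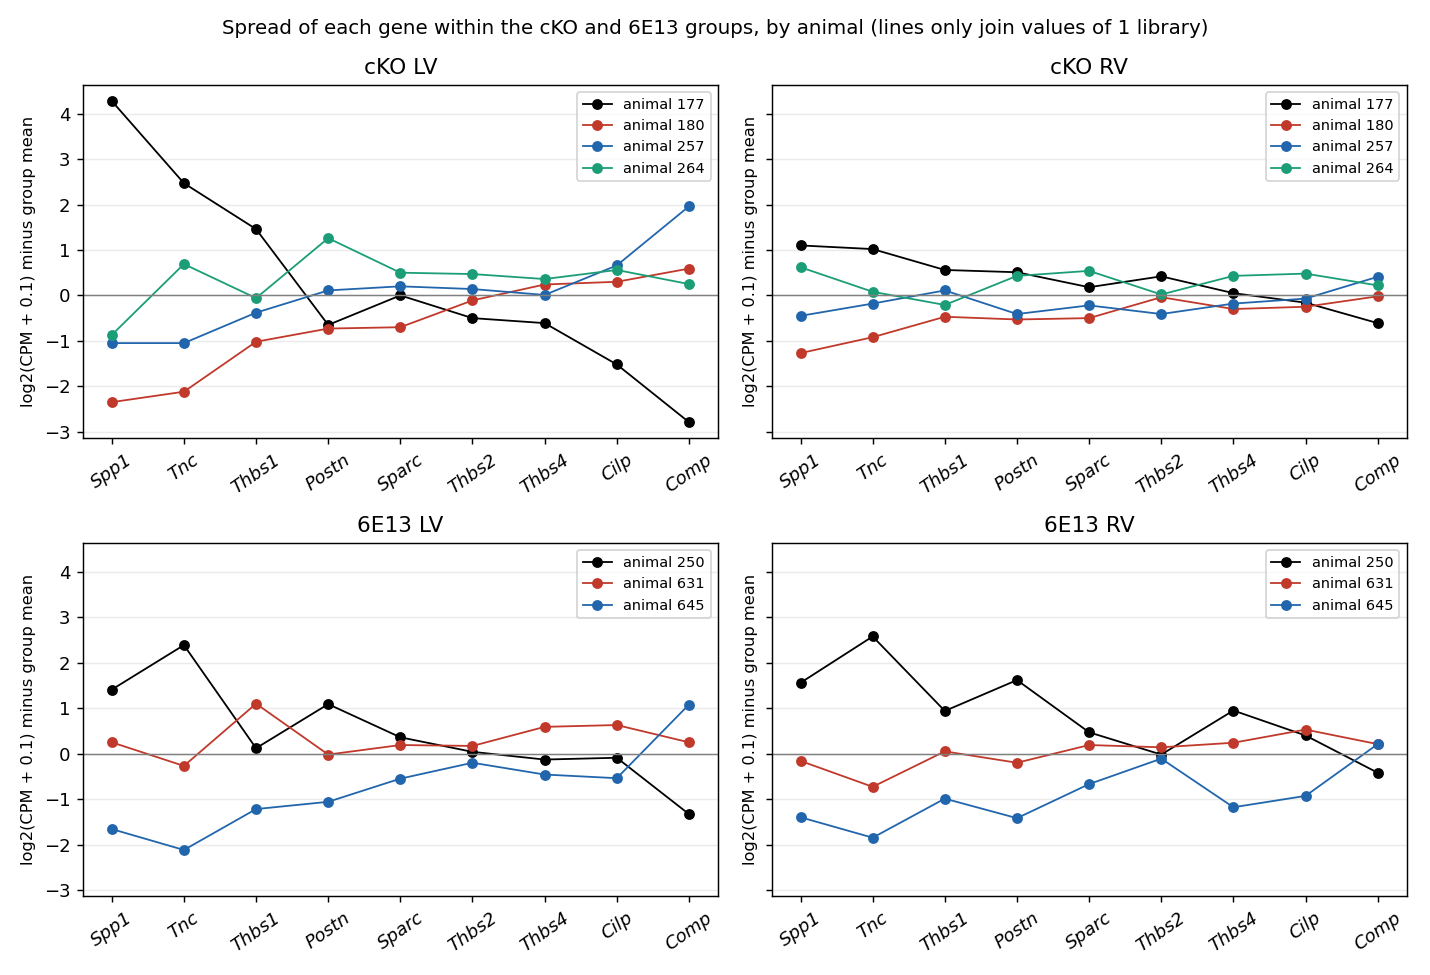
Each library's log2(CPM + 0.1) minus its group mean, for the cKO and 6E13 groups in LV and RV, with a line joining the 9 genes of a library. In cKO LV the line of animal 177 runs from 4.28 for Spp1 down to -2.79 for Comp, and in both ventricles of the 6E13 group animal 250 peaks at Tnc, at 2.39 in LV and 2.58 in RV.

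TN-401 at 3E13 vg/kg was compared with buffer in cKO hearts. In LV, 7 of the 9 genes were called lower, against a background of 6.25% of genes, and in RV, with only 2 treated libraries, 3 were called lower, against 3.83%. The median log2 change of the 9 genes was -1.48 in LV and -1.29 in RV, and that of all genes -0.03 and -0.02. With only the cKO and 3E13 libraries in the fit, 1 gene was called in LV and 0 in RV, where 49 and 78 of all genes were called in place of 1932 and 1488. The change was negative for all 9 genes in both ventricles, from -4.68 to -1.08 in LV and from -2.49 to -0.66 in RV. Those called lower in both were Thbs2 (log2 change -1.48 ± 0.20 in LV and -1.29 ± 0.21 in RV, with adjusted p of 8.70e-04 and 0.0120, edgeR) and Sparc (-1.26 ± 0.23 and -1.47 ± 0.34, adjusted p = 0.00524 and 0.0268, edgeR). Thbs1 fell by 2.43 ± 0.51 in LV (adjusted p = 0.00929, edgeR), from the cKO levels above to 69.5, 69.0, 75.6 and 47.2 CPM, and by 1.67 without animal 177 (adjusted p = 0.0137). In RV its change was -1.57 ± 0.45 (adjusted p = 0.0507, edgeR), at 68.0 and 83.2 CPM.

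The other calls at 3E13 were closer to the threshold. In LV Thbs4 was at 32.7, 20.2, 23.7 and 18.9 CPM (-1.08 ± 0.25, adjusted p = 0.0161, edgeR), Cilp at 123, 79.3, 89.2 and 80.6 CPM (-1.30 ± 0.40, adjusted p = 0.0474, edgeR) and Postn at 204, 390, 165 and 129 CPM (-1.64 ± 0.49, adjusted p = 0.0421, edgeR). All 3 groups overlapped those of cKO. The Cilp call was lost on leaving out any single library of either group but that of animal 177 (adjusted p 0.0587 to 0.122), the Postn call without animal 181, 252, 253, 257 or 264 (0.0525 to 0.138) and the Thbs4 call without animal 253 (0.0591). Spp1 was at 3.18, 11.5, 1.5 and 0.655 CPM, against 3.91 to 11.1 CPM in the cKO animals other than 177, and its fall of 4.68 ± 1.31 (adjusted p = 0.0330, edgeR) was -0.98 (adjusted p = 0.469) without animal 177, and the call was also lost without animal 181, 252 or 253 (adjusted p 0.0839 to 0.0928). Tnc in LV was even among animals, at 21.6, 19.5, 29.1 and 17 CPM, with a change of -2.84 ± 0.93 that missed the threshold (adjusted p = 0.0583, edgeR) against so uneven a cKO group, and passed it without cKO animal 180 (0.0233) or 257 (0.0413), whereas without animal 177 it was -1.50 (adjusted p = 0.239). Comp in LV was at 46.2, 17.7, 26.9 and 20.7 CPM (-1.20 ± 0.65, adjusted p = 0.241, edgeR), and at -1.58 it passed without animal 177 (adjusted p = 0.0398), whereas it was -0.36 without animal 257.

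In RV at 3E13 Comp fell by 1.52 ± 0.31 (adjusted p = 0.0207, edgeR), to 48.5 and 53.8 CPM. Postn at 258 and 363 CPM, Cilp at 207 and 261 CPM, Thbs4 at 43.5 and 57.5 CPM, Tnc at 30.6 and 43.7 CPM and Spp1 at 2.07 and 2.83 CPM all lay below the cKO mean, with adjusted p of 0.244, 0.165, 0.296, 0.708 and 0.0866 (edgeR). With either RV library of this dose left out, only a single treated library remained, so the calls of those fits cannot be read gene by gene. The RV calls at this dose thus rest on 2 treated libraries. Without cKO animals 180 and 257, 5 of the 9 genes were called (2240 of all genes, against 1488). Thbs1 (-1.74, adjusted p = 0.0489) and Spp1 (-3.09, adjusted p = 0.0325, edgeR) were the additions.

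At 6E13 vg/kg, set against the same cKO libraries, more of the genes were called. In LV 8 of the 9 genes were called lower than in cKO, all but Tnc, against a background of 8.16%, and in RV 7 were, all but Tnc and Postn, against 10.9%. The median log2 change was -2.49 in LV and -2.30 in RV, and that of all genes -0.04 in both. With only the cKO and 6E13 libraries in the fit, 2 genes were called in LV, where 305 of all genes were called in place of 2759. Cell markers moved with these falls: 7 of 9 macrophage markers were called lower in LV and 6 in RV, 2 of 7 fibroblast markers in LV and 6 in RV, and 4 of 6 ventricular muscle markers were called higher in each. The marker sums were 250 to 297 CPM for macrophages and 1150 to 1300 CPM for fibroblasts in LV, and 364 to 432 and 1530 to 1890 CPM in RV, and their part in the falls was not tested. The same 7 genes were called in RV without cKO animals 180 and 257, with changes of -2.01 for Thbs2 to -4.55 for Comp.

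**Figure D3:**
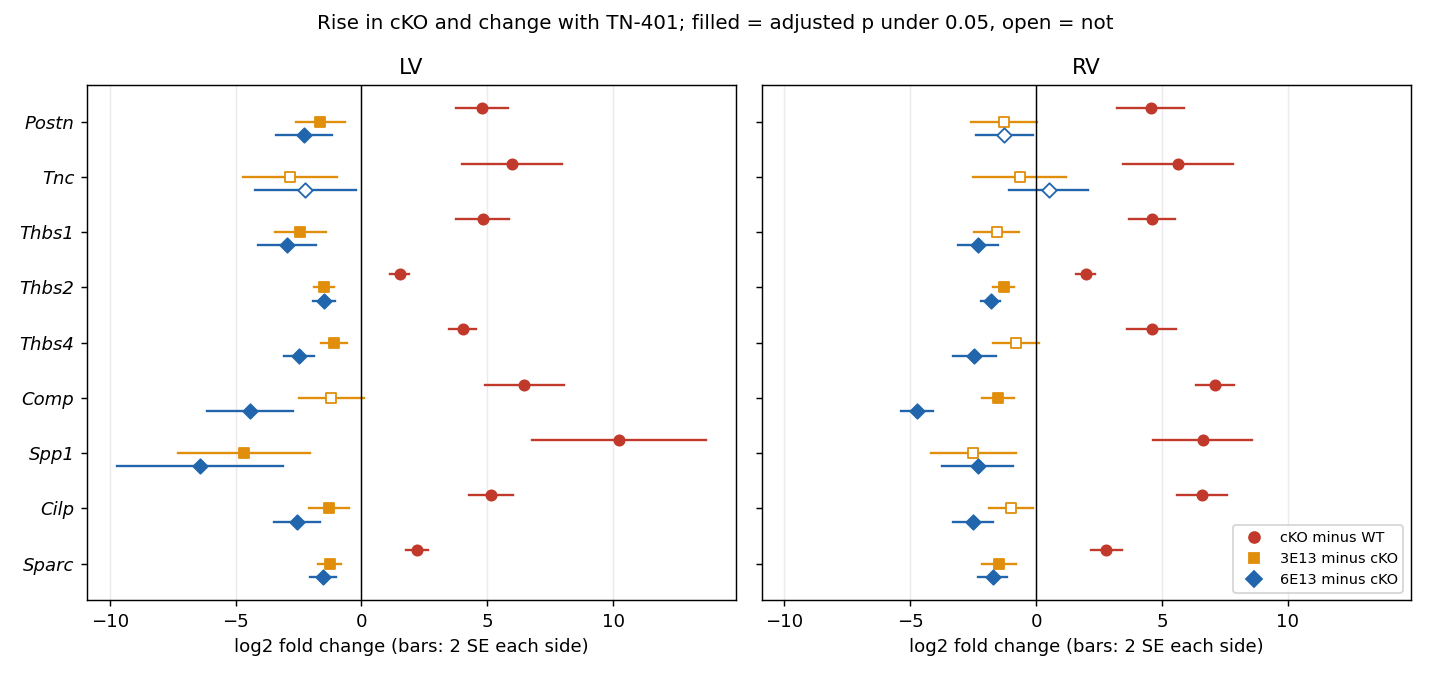
Log2 fold change of each gene (points, with bars of 2 SE to each side) for cKO minus WT, 3E13 minus cKO and 6E13 minus cKO, in LV and RV, filled where the adjusted p was under 0.05. All cKO minus WT points are filled, from 1.52 for Thbs2 to 10.23 for Spp1 in LV, and the points at 6E13 that are open are Tnc in both ventricles and Postn in RV.

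Comp fell the most of these genes in RV, and in LV the most after Spp1 (-6.43). Its log2 changes were -4.43 ± 0.86 in LV (adjusted p = 0.00380, edgeR) and -4.74 ± 0.32 in the RV libraries (adjusted p = 3.52e-05, edgeR). It was at 0.917, 2.93 and 5.27 CPM in LV and 4.00, 6.27 and 6.27 CPM in RV, below all cKO libraries, and above the WT range in RV. In LV the separation from cKO was narrow, at 5.27 CPM against 5.41 CPM in cKO animal 177. The LV change of Comp was -3.58 without cKO animal 257 and -5.10 without animal 645. Its pentameric relative Thbs4 was at 7.87, 13.0 and 6.22 CPM in LV and 26.3, 16.0 and 5.92 CPM in RV, with changes of -2.49 ± 0.30 (adjusted p = 2.57e-04, edgeR) and -2.46 ± 0.43 (adjusted p = 0.00251, edgeR). Cilp was at 34.3, 56.8 and 25.2 CPM in LV and 99.2, 109 and 39.4 CPM in RV, with changes of -2.56 ± 0.47 (adjusted p = 0.00276, edgeR) and -2.50 ± 0.40 (adjusted p = 0.00149, edgeR). These 3 genes did not overlap between 6E13 and cKO in either ventricle, but how many of all genes did so was not counted.

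The trimers and Sparc also fell. Thbs1 was at 40.4, 79.5 and 15.8 CPM in LV and 75.9, 40.8 and 19.8 CPM in RV, with changes of -2.96 ± 0.58 and -2.30 ± 0.40 (adjusted p = 0.00422 and 0.00223, edgeR). Thbs2 was at 33.0, 36.1 and 27.9 CPM in LV and 44.9, 50.1 and 42.1 CPM in RV, with changes of -1.48 ± 0.22 and -1.80 ± 0.19 (adjusted p = 8.55e-04 and 1.80e-04, edgeR). Sparc was at 286, 253 and 152 CPM in LV and 441, 363 and 200 CPM in RV, with changes of -1.53 ± 0.26 and -1.72 ± 0.29 (adjusted p = 0.00179 and 0.00208, edgeR). None of the 3 overlapped the cKO group, again without a count over all genes. Spp1 was at 2.28, 0.963 and 0.182 CPM in LV and 5.84, 1.70 and 0.663 CPM in RV, where it overlapped cKO, with changes of -6.43 ± 1.65 and -2.32 ± 0.70 (adjusted p = 0.0167 and 0.0352, edgeR). Without animal 177 the LV change of Spp1 was -2.81 (adjusted p = 0.0497) and that of Thbs1 -2.20 (adjusted p = 0.00360). The Spp1 call was lost without animal 631 or 645 in LV (adjusted p = 0.0651 and 0.0765) and without animal 177, 264, 631 or 645 in RV (adjusted p 0.0730 to 0.125).

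Tnc and Postn depended on animal 250. Tnc was at 82.5, 13.0 and 3.54 CPM in LV and at 216, 21.6 and 9.94 CPM in RV, the first value of each being that of animal 250, whose RV level exceeded those of all 4 cKO libraries. With it, Tnc differed from cKO by -2.23 ± 1.01 in LV (adjusted p = 0.142, edgeR) and by 0.50 ± 0.79 in RV (adjusted p = 0.706, edgeR). Without it the changes were -4.24 (adjusted p = 0.0351) and -1.89 (adjusted p = 0.0252), and with it but without cKO animal 177 the LV change of Tnc was -0.89 (adjusted p = 0.524). Postn was at 252, 117 and 56.7 CPM in LV (-2.29 ± 0.56, adjusted p = 0.0130, edgeR) and at 672, 191 and 82.0 CPM in RV (-1.26 ± 0.57, adjusted p = 0.138, edgeR), and without animal 250 the RV change was -2.47 (adjusted p = 0.00490). The LV call of Postn was lost without animal 631 (adjusted p = 0.0582) or 645 (0.0639), and its LV change was -2.99 without animal 250 and -1.68 without cKO animal 264. In the same animal Comp was the lowest of its group in both ventricles, and the transgene was at 535 CPM in LV and 466 CPM in RV, the highest of the group. Also in animal 250, Col1a1 (a collagen chain, 1 of the fibroblast markers) was at 379 CPM in LV against 169 and 112, and at 792 CPM in RV against 296 and 127. Its macrophage marker sums, 297 and 432 CPM, were near those of the other 6E13 libraries, at 250 to 280 in LV and 364 to 423 in RV, and its fibroblast sums of 1300 and 1890 CPM were set against 1150 and 1160 in LV and 1530 and 1810 in RV. With Col1a1 taken off, the rest of the fibroblast sum was lower in animal 250 than in the other 6E13 libraries of the same ventricle. Col1a1 therefore does not stand for its list here. The part of fibroblasts in the Tnc and Postn levels was not tested.

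How far the treated hearts were from WT was measured in the same fits. At 3E13, 6 genes were still called higher than WT in LV, against a background of 1.97%, and 8 in RV, against 5.80%. Cilp (3.85 ± 0.41, adjusted p = 1.75e-04), Comp (5.27 ± 0.76, adjusted p = 0.00191), Thbs4 (2.94 ± 0.26, adjusted p = 5.52e-05), Postn (3.15 ± 0.48, adjusted p = 0.00268), Thbs1 (2.38 ± 0.48, adjusted p = 0.0150) and Sparc (0.96 ± 0.22, adjusted p = 0.0299) were the 6 in LV (edgeR). Tnc (3.14 ± 0.92, adjusted p = 0.0886) and Spp1 (5.56 ± 1.83, adjusted p = 0.130) missed the threshold there and passed it in RV (4.99 ± 1.13, adjusted p = 0.0218, and 4.13 ± 1.04, adjusted p = 0.0336, edgeR). Thbs2 was the exception in both ventricles, with a difference from WT of 0.04 ± 0.18 in LV (2 SE to each side, -0.33 to 0.40) and 0.69 ± 0.21 in RV (adjusted p = 0.0725, edgeR). The Sparc call in LV was lost (adjusted p 0.0650 to 0.0938) without 3E13 animal 181, 182 or 252 or WT animal 248, 626, 637 or 647, and that of Thbs1 without WT animal 626 (0.0508). In RV the Tnc, Spp1 and Sparc calls were each lost without any 1 WT library, and the Postn call without WT animal 637 or 647. Calls over all genes fell as well, to 948, 606 and 866 without WT animals 636, 637 and 647, against 1278. Leaving out an RV library of 3E13 left only a single one, so the calls of those fits are not given.

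At 6E13, 2 genes were called higher than WT in LV, against 0.0792%, and 5 in RV, against 0.849%. Those in LV were Cilp (2.58 ± 0.41, adjusted p = 0.0339) and Thbs4 (1.53 ± 0.27, adjusted p = 0.0494, edgeR). Those in RV were Cilp (4.10 ± 0.45, adjusted p = 0.00269), Comp (2.38 ± 0.36, adjusted p = 0.0166), Thbs1 (2.29 ± 0.42, adjusted p = 0.0367), Tnc (6.15 ± 1.13, adjusted p = 0.0367) and Postn (3.30 ± 0.64, adjusted p = 0.0423, edgeR). Thbs2 was within 0.03 ± 0.20 of WT in LV (2 SE to each side, -0.36 to 0.43) and 0.18 ± 0.19 in RV. Of the genes not called in LV, Postn (2.51 ± 0.49, adjusted p = 0.108, edgeR) did not overlap WT, whereas Comp, Sparc, Spp1, Thbs1, Thbs2 and Tnc did. Of those not called in RV, none overlapped WT. They were Sparc (1.07 ± 0.30, adjusted p = 0.136, edgeR), Thbs4 (2.13 ± 0.47, adjusted p = 0.0602, edgeR), Spp1 (4.30 ± 0.98, adjusted p = 0.0713, edgeR) and Thbs2. How many of all genes lay apart in this way was not counted. Without animal 250 the RV differences were 3.76 for Tnc (adjusted p = 0.0343), 2.09 for Postn (adjusted p = 0.113) and 1.70 for Thbs1 (adjusted p = 0.115). The LV calls were fragile, with 0 genes left without 6E13 animal 250 or 631 or WT animal 248, 626, 637 or 647. The count was 1 without WT animal 636 and 3 without 6E13 animal 645. Calls over all genes in LV were 15 without animal 645 and 2 to 4 without any other animal, against 14. In RV the count was 3 without animal 250 or 631 (20 and 55 of all genes, against 151) and 8 without animal 645 (182). It was 1 without WT animal 636, 637 or 647 (22, 15 and 26 of all genes), when Cilp stayed and Postn, Thbs1, Tnc and Comp did not (adjusted p 0.0528 to 0.166, edgeR). The losses were thus not particular to these genes.

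The share of the cKO rise that was left in treated libraries set the genes side by side, on the log2(CPM + 0.1) scale with the WT mean at 0 and the cKO mean at 100%. At 6E13 in LV it was 51.6 ± 11.8% for Cilp (SD over 3 libraries), 36.9 ± 13.6% for Thbs4, 30.5 ± 21.7% for Comp, 29.9 ± 22.4% for Sparc and 2.07 ± 12.8% for Thbs2. At 3E13 in LV it was 77.9 ± 5.90% for Cilp, 73.0 ± 8.87% for Thbs4, 90.2 ± 10.8% for Comp, 43.6 ± 13.7% for Sparc and 0.412 ± 25.6% for Thbs2. Comp thus had the largest share of the 9 left at the lower dose in LV and the third smallest at the higher dose, beside a cKO mean that animal 177 pulled down. Tnc had the widest spread at 6E13, 14.8 to 101% in LV and 55.8 to 138% in RV. All these shares use the same WT and cKO libraries, so they are not independent of one another.

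**Figure D4:**
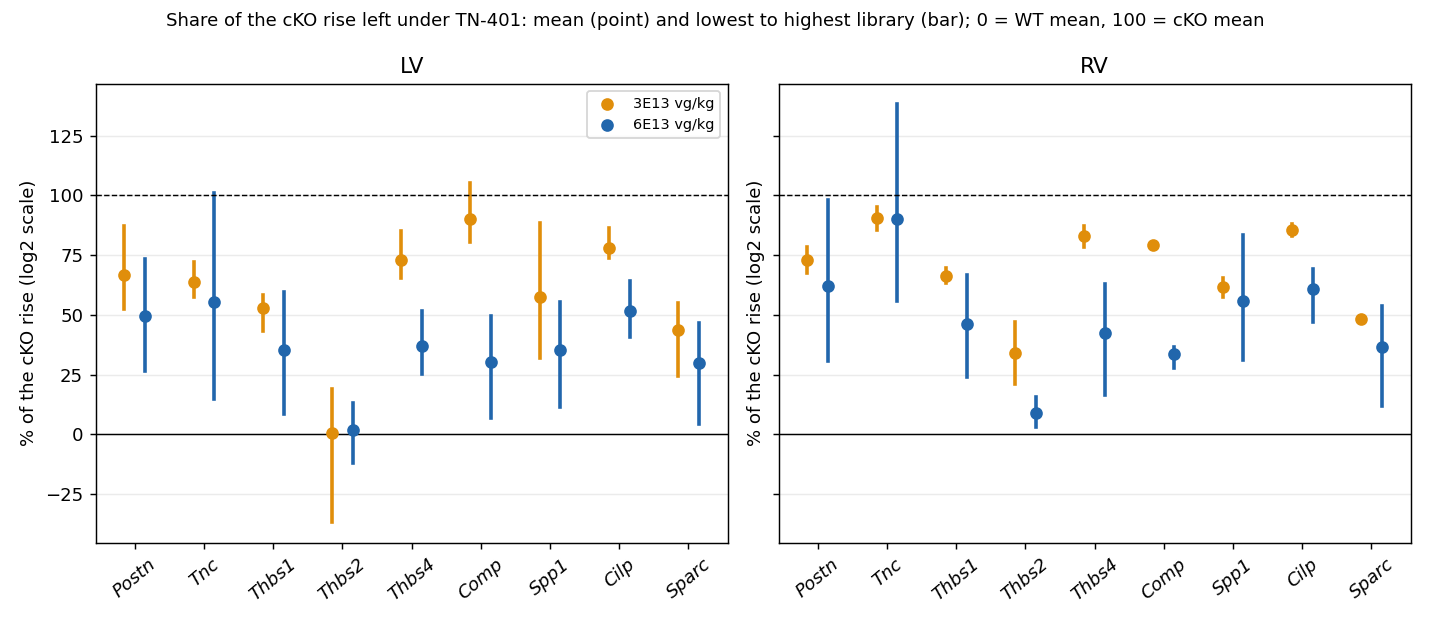
Share of the cKO rise left in treated libraries for each gene (percent, on the log2 scale; 0 is the WT mean and the dashed line at 100 the cKO mean), as the mean and the range over libraries, in LV and RV. Thbs2 lies near 0 in LV at both doses, Comp falls from 90.2 to 30.5% in LV and from 79.2 to 33.6% in RV with dose, and Tnc at 6E13 spans 55.8 to 138% in RV.

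The doses were then compared directly. In LV 0 of the 9 genes were called different between 6E13 and 3E13 by edgeR, where 0.0122% of all genes were. Unadjusted p was under 0.05 for 3 of them, and DESeq2 called 2, Comp (-3.20, adjusted p = 0.0215) and Thbs4 (-1.41, adjusted p = 0.00250). In RV 1 gene was called, Comp, at -3.22 ± 0.32 (adjusted p = 0.00392, edgeR), where 0.0404% of all genes were. Without 3E13 animal 253, which left only a single 3E13 library, the Comp value was -3.15. The LV difference of Comp was nearly equal in size, at -3.23 ± 0.82, but its adjusted p was 0.528. Thbs4 differed by -1.41 ± 0.29 in LV (adjusted p = 0.290, edgeR) and -1.65 ± 0.47 in RV (adjusted p = 0.287, edgeR), and Cilp by -1.27 ± 0.44 (adjusted p = 0.798, edgeR) and -1.50 ± 0.43 (adjusted p = 0.289, edgeR).

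Left and right ventricles were compared within animals, with the animal as a block, in the 12 animals that gave both. In WT 0 of the 9 genes were called by edgeR (background 0.00556%, 1 gene at an unadjusted p under 0.05, and 0 called by voom). In cKO 1 gene was called, Sparc, higher in RV by 0.60 ± 0.11 (adjusted p = 0.0150, edgeR; background 4.08%). Beside it 5 of 7 fibroblast markers (median 0.96) and 4 of 4 atrial muscle markers (median 8.95) were called higher in cKO RV, and their part was not tested. Sparc was higher in the RV of all 4 cKO animals, at 1200 against 636 CPM in animal 177, 750 against 390 in 180, 914 against 729 in 257 and 1540 against 901 in 264. The Sparc call was lost without animal 180 (adjusted p = 0.0761) or 264 (adjusted p = 0.0776), and without the animal block (0.59, adjusted p = 0.305). Comp was also higher in the RV of every cKO animal, by 1.66 ± 0.49 (adjusted p = 0.0789, edgeR), as were Cilp, by 1.05 ± 0.30 (adjusted p = 0.0697, edgeR), and Thbs2, by 0.69 ± 0.20 (adjusted p = 0.0755, edgeR), and all 3 passed with voom (adjusted p = 0.0353, 0.0326 and 0.0454). Without animal 177 the Comp, Cilp and Thbs2 differences were 1.02, 0.61 and 0.37, and without animal 257 Comp and Thbs2 passed (adjusted p = 0.0401 and 0.0499).

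At 6E13 0 genes were called between the ventricles (background 0.0111%, 4 at an unadjusted p under 0.05). The cKO effect itself was called different between RV and LV for 0 of the 9 genes by edgeR (background 0.0111%, 2 at an unadjusted p under 0.05), as was the effect of 6E13 on cKO (0 called, background 0%, 1 at an unadjusted p under 0.05). Voom with the animal as a block also called 0 in these 3 comparisons. For Sparc the cKO effect was larger in RV by 0.63 ± 0.17 (adjusted p = 0.236, edgeR).

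The wider family and its receptors gave a context. Of 22 other matricellular genes 19 passed the filter on low counts, and 12 of these were called higher in cKO LV and 14 in cKO RV, where Vtn (vitronectin, a plasma adhesion protein) was lower, at -0.46 ± 0.16 (adjusted p = 0.0418, edgeR). Their median log2 fold changes were 1.57 and 2.03. Ctgf (Ccn2, a partner of TGF-β in fibrosis) rose by 3.39 ± 0.26 in left and 3.36 ± 0.26 in right ventricles (adjusted p = 9.51e-07 and 8.73e-06, edgeR), and Thbs3, the remaining pentameric thrombospondin, by 2.10 ± 0.19 and 2.76 ± 0.26 (adjusted p = 3.88e-06 and 2.44e-05, edgeR). Fbln2 (fibulin-2, of elastic fibres and basement membranes) rose by 2.25 ± 0.27 and 2.44 ± 0.22 (adjusted p = 3.09e-05 and 1.96e-05, edgeR), Wisp1 (Ccn4) by 3.47 ± 0.53 in LV and Wisp2 (Ccn5) by 5.39 ± 0.54 in RV. At 6E13, 9 of the 19 were lower than in cKO in LV and 11 in RV, and against WT 0 were called higher in LV and 1, Thbs3 (1.44 ± 0.26, adjusted p = 0.0354, edgeR), in RV.

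Of 15 receptors of these proteins, 10 were called higher in cKO LV and 12 in cKO RV, with median log2 fold changes of 0.88 and 1.17. Lrp1, the endocytic receptor that clears thrombospondins, rose by 1.73 ± 0.11 in left and 2.48 ± 0.16 in right ventricles (adjusted p = 2.79e-07 and 5.25e-06, edgeR). Cd44, a receptor of osteopontin and hyaluronan, rose by 2.76 ± 0.33 and 2.33 ± 0.18 (adjusted p = 2.91e-05 and 8.73e-06, edgeR), and the integrin subunit Itgb5 by 1.37 ± 0.17 and 1.98 ± 0.13 (adjusted p = 4.28e-05 and 4.89e-06, edgeR). Cd47, a thrombospondin-1 receptor, rose by only 0.61 ± 0.08 in LV (adjusted p = 4.33e-05, edgeR), and Itga5 by 1.35 ± 0.12 in RV (adjusted p = 1.48e-05, edgeR). At 6E13, 10 of the 15 receptors were lower than in cKO in LV and 9 in RV. Against WT, 0 were called higher in LV and 3 in RV, of which Cd44 was at 1.39 ± 0.18 (adjusted p = 0.00909, edgeR) Itgb5 at 0.66 ± 0.13 (adjusted p = 0.0435, edgeR) and Itga4, named after its value was seen, at 1.51 ± 0.30 (adjusted p = 0.0435, edgeR).

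The pattern of each gene over the 8 group means was set against 9765 other genes that averaged 5 CPM or more, as the root mean square difference of centred log2 CPM. This is a description over 8 points that share libraries. Postn was nearest to Col12a1 (0.27), Lgals3 (0.28) and Mfap5 (0.34), and Thbs4 to Lgals3 (0.25), Nppa (0.26) and Nox4 (0.26). Cilp was nearest to Col8a2 (0.19), Sfrp2 (0.20) and Timp1 (0.39), and Sparc to Dnm3os (0.10), Cercam (0.12) and Aebp1 (0.13). Thbs1 was nearest to Adam8 (0.27), Fn1 (0.37) and Col12a1 (0.39), and Thbs2 to Bmper (0.13), Bmf (0.16) and Kirrel (0.17). Tnc, Spp1 and Comp lay farthest from their nearest genes, which were Sprr1a (0.49), Timp1 (0.56) and Col12a1 (0.59) for Tnc, Lox (0.40), Col12a1 (0.60) and Timp1 (0.70) for Spp1, and Wisp2 (0.71), Ltbp2 (0.72) and Fmod (0.76) for Comp. The difference is not scaled to how much a gene varied, so it does not rank closeness of pattern. The SD over the group means was 2.18 for Tnc, 2.45 for Spp1, 2.79 for Comp and 2.43 for Cilp, but 0.83 for Thbs2 and 0.99 for Sparc. Among the 9 genes themselves the smallest differences were those of Thbs2 and Sparc (0.35), which varied least, Postn and Thbs4 (0.43) and Postn and Thbs1 (0.44).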

How the data were processed

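RNA was taken from LV and RV of 16 mice, giving 28 libraries. Per the labels and the study's methods, the authors trimmed reads, quantified them with Salmon 1.8.0 against GENCODE mouse transcripts (GRCm39) with a human PKP2 sequence added, and summed transcripts per gene symbol. The deposited tables hold estimated counts, which need not be whole, TPM values and effective lengths. The labels name both a polyA and a total RNA preparation, so which one was used is not settled. Antisense transcripts overlap Postn, Tnc, Thbs1, Comp and Cilp and a locus on the same strand overlaps Spp1 in the annotation, so shared reads are possible for these. A row without a gene name took 5.15e-04% of the counts and was left out.

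The estimated counts were rounded and tested with edgeR 4.0.16 (R 4.3.3, quasi-likelihood, filterByExpr, TMM), with the 4 groups of a ventricle in 1 fit, so that the spread was shared. P-values were adjusted by Benjamini-Hochberg over all genes tested, with 0.05 as the threshold for a call. The SE was derived from F (log2 fold change over its root). For the ventricle comparison, restricted to the 12 animals that gave LV and RV, the animal entered as a block, since both libraries come from 1 heart. The deviations from the group mean of an animal's 2 libraries correlated at r 0.08 to 0.54. With other animals' libraries the mean r was below 0. Taking off the group mean pushes that value below 0 when the first is above it, so it was no test of the pairing. TPM was used to rank genes, and limma 3.58.1 and DESeq2 1.42.0 served as alternatives. On simulated counts 99.0% of genes changed by 2 on the log2 scale and 46.0% of those changed by 1 were recovered for cKO minus WT in LV (15319 genes), 95.0 and 39.4% in RV (15616 genes, with 8.22% false calls), 98.0 and 33.0% for RV minus LV in cKO, and 75.0 and 5.00% for the difference of the cKO effect between ventricles (15539 genes each). The simulation gave every gene the same dispersion, changed few genes and held no outlying animal. These rates therefore do not carry over to genes as uneven between animals as Spp1, Comp and Tnc. Within groups the closest of 38 library pairs had a chi-square of 16.7 per degree of freedom, so no pair was treated as 1 library. Each library is from 1 animal, and p-values measure the spread between animals.

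The 9 members and the lists were chosen with earlier results of these data known. Of the other matricellular genes and the receptors, those named had the 4 smallest adjusted p in cKO minus WT of a ventricle. Vtn was named after its value was seen. File symbols are older for the Ccn genes, and all 93 listed genes matched.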

Additional observations from a re-analysis of the deposited data

Results flagged for a closer look

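In a screen for libraries far from the rest of their group (Dixon's gap ratio, groups of 4 or 5 libraries, 36 sets of a gene and a group), 2 sets passed the 95% critical value, and chance flags about 1 set in 20. Spp1 in cKO LV had a gap ratio of 0.982, since animal 177 was at 397 CPM and the other 3 libraries at 3.91 to 11.1 CPM. Postn in WT LV had a gap ratio of 0.730, since animal 636 was at 35.2 CPM and the others at 20.4 to 24.4 CPM.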

How the results depend on the processing

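All 9 genes stayed called in cKO minus WT under each alternative in both ventricles, and 170 of 170 values in LV and 153 of 153 in RV kept their direction and side of the threshold (DESeq2 gave Spp1 in LV no adjusted p). The treated comparisons moved more, and the cause was not tested. For 3E13 minus cKO, 1 gene in LV and 0 in RV were called with only the 2 groups compared in the fit, and in RV 6 with both ventricles in 1 model, 5 with DESeq2, 7 with limma on log2(TPM + 1) and 5 without the 2 cKO libraries with most Myl7, where all genes called were 4062, 2815, 5554 and 2240 against 1488. For 6E13 minus cKO in LV, 2 were called with only the 2 groups. For 3E13 minus WT in RV, limma called 5 (544 of all genes against 1278). For 6E13 minus WT in LV, DESeq2 called 4, limma 0, transcript length offsets 0 and RLE size factors 1 (97, 2, 3 and 11 of all genes against 14), and in RV both ventricles in 1 model called 3, DESeq2 8, limma 1, only the 2 groups 1 and sex as a covariate 2 (66, 633, 15, 78 and 41 of all genes against 151). For 6E13 minus 3E13, both ventricles in 1 model called 1 and DESeq2 2 in LV, and DESeq2 3 in RV (15, 45 and 245 of all genes against 2, 2 and 7). Leaving out 1 library gave 3 to 7 genes in LV for 3E13 minus cKO (728 to 2714 of all genes). For 6E13 minus cKO it gave 6 to 9 in both ventricles (1169 to 3454 of all genes in LV and 2039 to 3989 in RV). For 3E13 minus WT it gave 4 to 6 in LV (184 to 346 of all genes). For 6E13 minus WT it gave 0 to 3 in LV and 1 to 8 in RV (2 to 15 and 15 to 182 of all genes). RV ranges for the 3E13 comparisons are not given, since leaving out a library can leave only a single one in that group. For RV minus LV in cKO, the fit without the replicate block called 0 genes, no low-count filter 2, voom with the animal as a block 4, and leaving out 1 animal 0 to 3. Among the values given above, directions turned for Thbs2 in 3E13 minus WT in LV (-0.06 without 181, -0.04 without 252, -0.00 without WT 647, up to 0.19 without 182), Thbs2 in 6E13 minus WT in LV (-0.05 without 631, -0.00 without WT 647, up to 0.13 without 645) and Tnc in 6E13 minus cKO in RV (-1.32 with both ventricles in 1 model, -0.72 with limma, -1.89 without 250, up to 1.02 without 645). Between the doses Tnc turned from 0.61 to -1.40 in LV and from 1.16 to -1.23 in RV without 250, and to -0.02 with both ventricles in 1 model, and in RV Postn (0.02 to -1.19) and Spp1 (0.17 to -1.04) turned without 250. On log2(TPM + 1) the median of all genes in cKO minus WT moved to 0.37 in LV and 0.54 in RV, and 15 of 36 shares of the rise moved by over 1 SD. Small groups (2 3E13 RV libraries) and WT levels of a few reads (Spp1) limit these values.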
